A study of Mus musculus with 35 samples.

Results

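The comparison described here sets 4 arrays of lymphoid tumours titled Bcl6 Trans against 5 arrays of germinal centre B cells, which are 9 of the 35 arrays of the series. Members were taken by array title, and no measured value was used to choose them. The tumours came from Bcl6 knock-in mice of a Bcl6 transgenic strain and are called Bcl6 tumours. The germinal centre (GC) B cells were sorted from the spleen of wild-type B6 mice as B220-positive and PNA-high cells. PNA is a lectin that binds the surface of GC B cells. In the mouse line that the labels cite, a tagged Bcl6 coding sequence is driven by a promoter of the immunoglobulin heavy chain locus. The age, the site of each tumour and the immunization of the B6 mice are not given in the sources used here. Tumours were profiled as tissue and GC B cells as a sort, and the strain differed too, so tissue, strain and tumour state cannot be told apart. The other 26 arrays held 5 further stages of normal B cells and 2 further tumour types, those labelled Myc/Bcl6 (n = 3, dual-transgenic) and those of Lig4/p53 double knock-out mice (n = 6).

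Bcl6 is a transcriptional repressor that GC B cells need: it holds down genes of B-cell activation, of the DNA damage response and of plasma cell differentiation while the cells divide and mutate their antibody genes. The GC is also a tissue structure, in which follicular dendritic cells (FDC) trap antigen through complement receptors and attract B cells with chemokines. A sort of GC B cells leaves that structure behind, whereas a tumour sample holds whatever stroma, vessels and immune cells the tumour contained. In such bulk samples, fewer cells of a type and less RNA per cell cannot be told apart.

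The RNA control probe sets differed between both sides. The 18S rRNA probe sets averaged 4.14, 4.65, 4.35 and 4.35 (log2 intensity) in Bcl6 tumour replicates 1 to 4, and 10.0 to 11.1 in the 5 GC arrays. The difference was -6.13 on the log2 scale (exact 2-sided permutation test, p = 0.0159, the smallest p that 4 against 5 arrays allow). For Actb and Gapdh the log2 level of the 3' probe sets less that of the 5' ones, called the 3' minus 5' difference, is large where RNA is short or amplification is biased to the 3' end, and was 3.65 to 4.60 in the tumours and 0.68 to 1.55 in GC B cells (difference 3.16, exact permutation p = 0.0159). The interquartile range of log2 values was 2.15 in Bcl6 tumour replicate 2, 3.25 to 3.78 in the other 3 tumours and 3.95 to 4.14 in GC B cells. In the 18S level the other tumours lay on the same side as the Bcl6 tumours, at 4.15 to 6.15. Plasma cell replicates 1 and 2 did so too, at 4.02 and 4.21, which makes them sorted cells with controls like those of the tumours. What part these differences have in the gene results below was not tested, and values that bear on it are given beside the results.

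**Figure D1:**
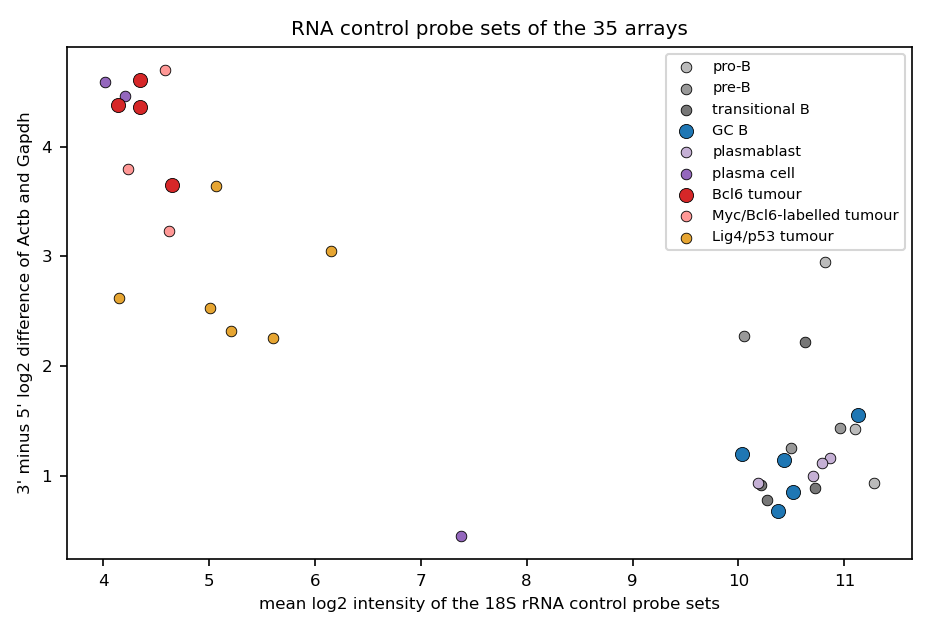
Level of the 18S rRNA controls (x axis, mean log2 intensity) against the 3' minus 5' difference (y axis, log2, over Actb and Gapdh), 1 point per array, coloured by group. The 4 Bcl6 tumours lie between 4.14 and 4.65 on the x axis and the 5 GC arrays between 10.0 and 11.1, with no overlap on either axis.

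Replicate 2 of the Bcl6 tumours also stood apart from its group. Its rank correlation with the other 3 Bcl6 tumours over all genes was 0.803 to 0.819, while those 3 correlated with each other at 0.923 or more (a description across genes, which are not independent replicates). Results are therefore given with and without it. GC replicates 1 and 2 correlated at 0.988 and replicates 3 and 4 at 0.987, and whether either pair shares mice is not given in the sources used here.

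The Bcl6 transcript itself was lower in the tumours. The probe set read 6.23, 7.13, 6.79 and 8.52 in Bcl6 tumour replicates 1 to 4, and 11.28, 11.40, 11.24, 11.57 and 10.63 in GC replicates 1 to 5, on the log2 intensity scale. No tumour array reached the lowest GC array, and replicate 4 was the highest of the tumours. The difference was -4.06 ± 0.70 (log2 ± SE, n = 4 and 5, limma with Benjamini-Hochberg adjustment over all genes, adjusted p = 6.63e-05). The second Bcl6 probe set, which was dimmer, gave means of 4.26 and 6.18. Whether either probe set lies in the inserted sequence is not given in the sources used here, so these levels do not check the genotype label. Bcl6 read 4.18 to 9.10 in the Myc/Bcl6-labelled tumours, 4.78 to 6.44 in the Lig4/p53 tumours and 3.47 to 3.81 in plasma cells. With the 3' minus 5' difference as a covariate, the Bcl6 difference was -3.21 with an adjusted p of 0.0532 (limma).

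Myc, the growth regulator that Bcl6 is known to repress in the GC, was 6.80, 5.77, 6.92 and 7.19 in the tumours. In GC B cells it was 7.75 to 8.44 in 4 arrays and 10.23 in replicate 5. The groups did not overlap, and Myc was lower by -1.81 ± 0.64 (limma, adjusted p = 0.0334). It was no longer called without tumour replicate 1 or 2 or GC replicate 4 or 5 (limma, adjusted p from 0.0507 to 0.133), and was -0.05 with the 3' minus 5' covariate. In the tumours labelled Myc/Bcl6, Myc read only 4.93 to 5.41, against 10.10 to 11.31 in the Lig4/p53 tumours, so those 3 arrays are named by their label throughout.

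The markers checked for both sides were Gcsam and Cr2 for GC B cells, and Cxcl9 and Clu for the tumours. Gcsam, a signalling adaptor of GC B cells, read 9.05, 8.41, 7.82, 8.0 and 6.17 in the GC arrays and 2.83, 3.78, 2.68 and 3.14 in the tumours. Cr2, the complement receptor of mature B cells and FDC, read 9.06 to 10.65 in GC B cells and 4.38, 5.44, 4.22 and 3.90 in the tumours. Both separated the groups fully, and both were as low in the other 2 tumour types: Gcsam at 2.36 to 4.00 and Cr2 at 2.52 to 5.24. Cxcl9, an interferon-induced chemokine that draws T cells, read 10.30, 9.59, 10.83 and 11.91 in the tumours and 2.44 to 2.97 in GC B cells. Clu, a secreted chaperone abundant in FDC, read 11.41, 12.09, 12.72 and 11.59 in the tumours and 4.50 to 6.13 in GC B cells. These 2 genes were also high in the Myc/Bcl6-labelled tumours (Cxcl9 at 6.39 to 10.82, Clu at 6.99 to 12.77), and not in the Lig4/p53 tumours (2.30 to 3.05 and 3.38 to 5.94).

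**Figure D2:**
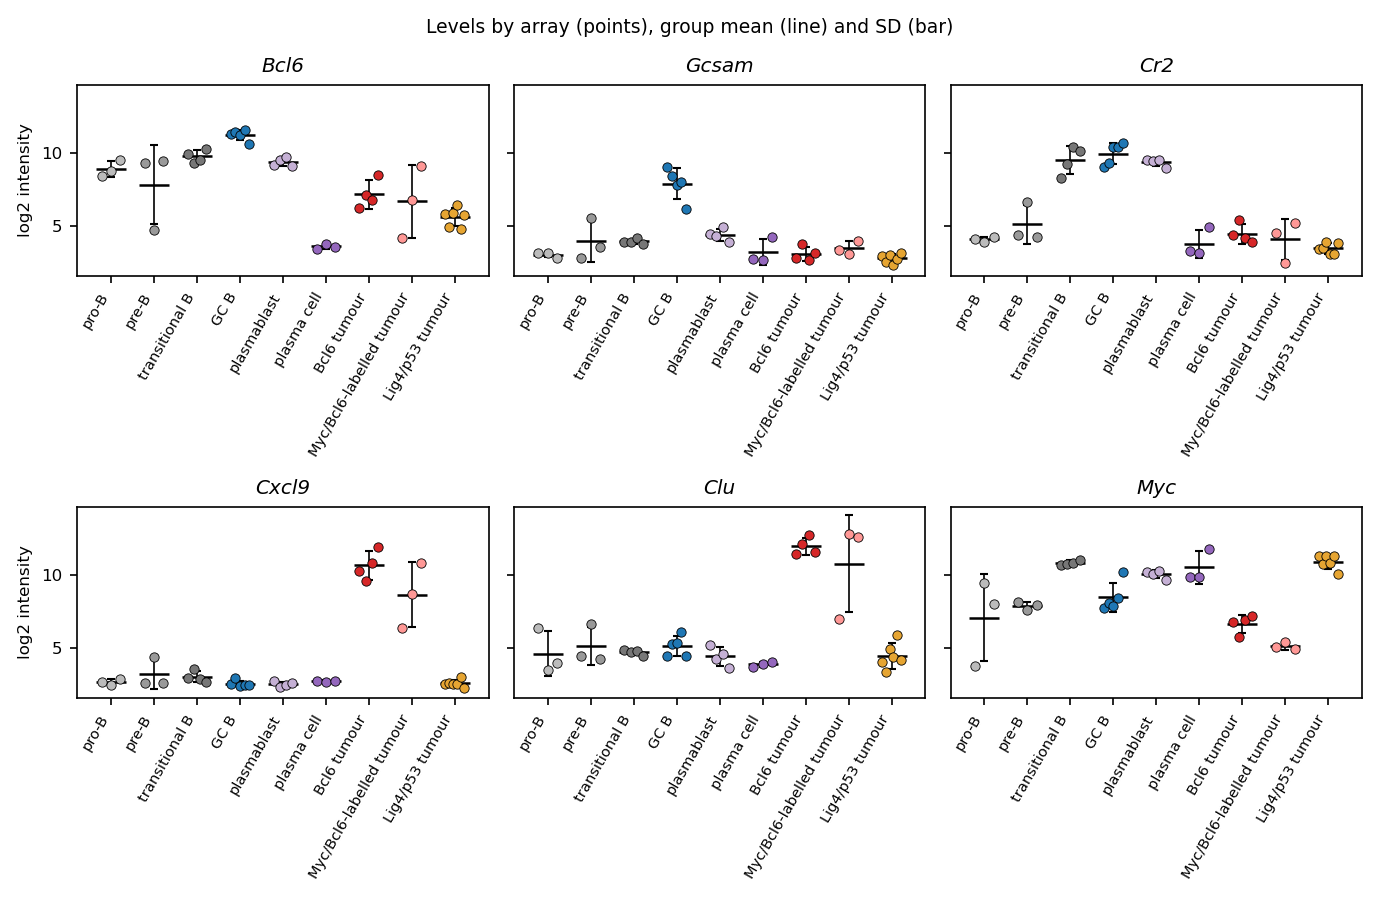
Log2 intensity of Bcl6, Gcsam, Cr2, Cxcl9, Clu and Myc in the 9 groups, with 1 point per array, the group mean as a line and the SD as a bar. Bcl6, Gcsam and Cr2 have their highest group mean in GC B cells (11.22, 7.89 and 9.95), and Cxcl9 and Clu are higher in every Bcl6 and Myc/Bcl6-labelled tumour than in any other array.

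Over all genes, 1607 were higher and 1719 lower in the Bcl6 tumours at a limma adjusted p under 0.05, which is 3326 of 12393, or 26.8% (13.0% higher and 13.9% lower). The 4 tumour and 5 GC arrays did not overlap for 33.2% of genes. The full rule for naming a gene, which asks for no overlap and a call both with and without tumour replicate 2, was met by 1880 genes (15.2%). The median difference over all genes was 0.21. Whether replicates are separate mice is not stated, so the p-values measure spread between arrays. Each SE and p of the main fit used a residual spread pooled over all groups of the series. They do not measure the spread of the 4 tumour and 5 GC arrays alone. With the arrays of these groups alone, 4229 genes were called, and 4 of the 122 called genes given by name lost their call. Without tumour replicate 2 the counts were 1197 and 1137 (18.8% called, 9.66% higher and 9.17% lower), and array weights, which gave that array a weight of 0.136, gave 2766 and 2244. Without the dimmer genes, 499 were higher and 1576 lower of 6197 tested. With the 3' minus 5' difference as a covariate 441 genes were higher and 431 lower of 12393. The counts of lists under this covariate, given below, stand beside these counts over all genes. With the 18S level as a covariate, which is 4.14 to 6.15 in all tumours and 7.38 or more in all sorted arrays but plasma cell replicates 1 and 2, 1 gene was called, the proteoglycan gene Bgn (5.96, limma adjusted p = 0.00341, named after its value was seen), with 1466 at an unadjusted p under 0.05.

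**Figure D3:**
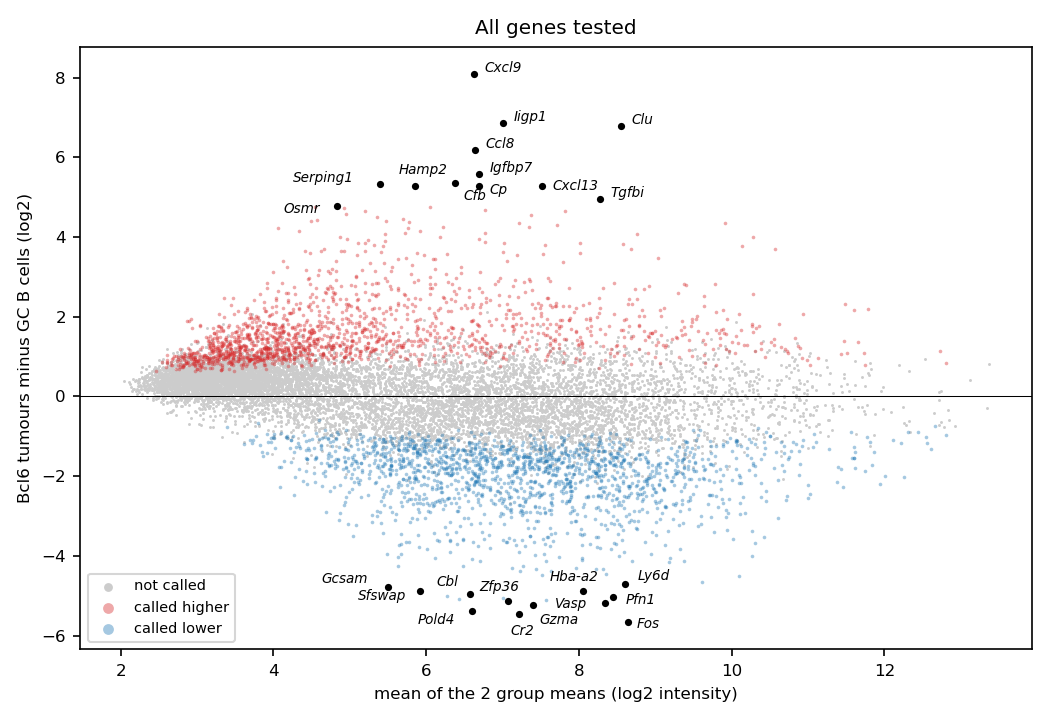
Difference of the Bcl6 tumours and GC B cells (y axis, log2) against the mean of both group means (x axis, log2 intensity) for 12393 genes, with the 1607 called higher in red, the 1719 called lower in blue and the largest 12 of each named. Increases reach 8.08 (Cxcl9) and decreases -5.65 (Fos).

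The largest increases held chemokines, interferon-induced genes, complement factors and genes of stroma. After Cxcl9 (8.08 ± 0.50, adjusted p = 4.72e-13, limma) came Iigp1, an interferon-induced GTPase that attacks the vacuoles of intracellular pathogens, at 11.05, 9.06, 10.59 and 11.05 in the tumours and 3.41 to 3.83 in GC B cells (6.87 ± 0.53). Clu followed (6.79 ± 0.74), then Ccl8, a chemokine for monocytes, at 10.29, 10.97, 6.39 and 11.27 in the tumours and 3.20 to 3.78 in GC B cells (6.18 ± 0.60). Replicate 3 was the low tumour for Ccl8, and replicate 2 the low one for Iigp1. The SE of Ccl8, pooled over all groups, does not show its spread in the tumours. Its limma adjusted p was 4.80e-09 in the main fit and 0.000281 with the arrays of the compared groups alone. Igfbp7, a secreted protein of vessel walls, differed by 5.59 ± 0.35 and read 8.66 to 10.60 in the tumours. Its other 2 probe sets were dimmer and differed by 1.87 and -0.05.

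The other 7 of the 12 were smaller. Cfb (5.35 ± 0.46) is the factor B of the alternative complement pathway, and Serping1 (5.34 ± 0.57) is the inhibitor of C1, the first component of the classical pathway. Cp (5.29 ± 0.61) is the copper-carrying ferroxidase ceruloplasmin, Cxcl13 (5.28 ± 0.60) the chemokine that FDC use to attract B cells, and Hamp2 (5.27 ± 0.61) a relative of the iron hormone hepcidin. Hamp2 ran from 4.88 in tumour replicate 1 to 10.87 in replicate 4, a spread that its pooled SE does not show. Tgfbi (4.95 ± 0.67) is a matrix protein and Osmr (4.77 ± 0.42) the receptor of oncostatin M. Just below this limit lay Fkbp9 and Ubd, both at 4.76. All 12 had been required to be called without tumour replicate 2, and all 12 were also called with the 3' minus 5' covariate.

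**Figure D4:**
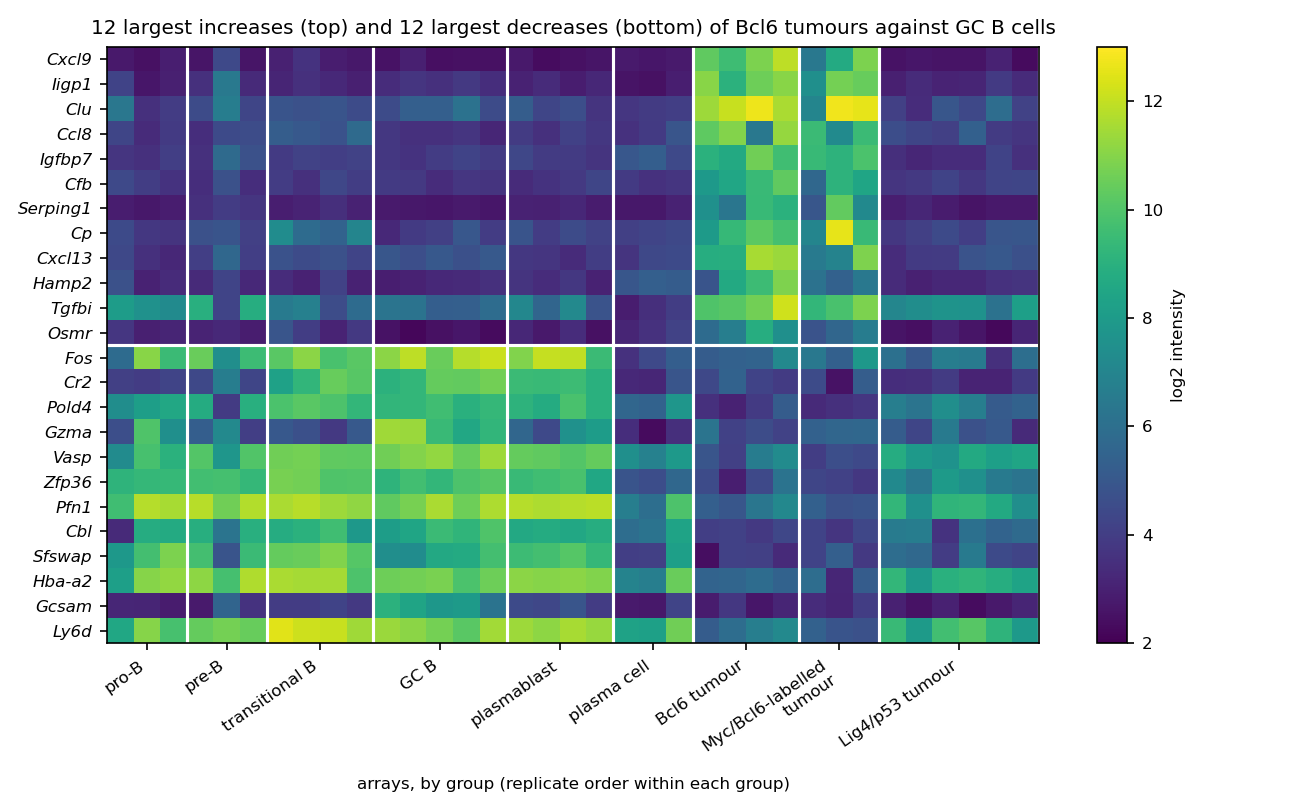
Log2 intensity (colour) of the 12 largest increases and 12 largest decreases in all 35 arrays, ordered by group. The upper genes are bright in the Bcl6 tumours and in the Myc/Bcl6-labelled tumours, and the lower genes are bright in GC B cells, most of them also in transitional B cells and plasmablasts.

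Of the interferon-gamma-induced genes, 9 of 22 measured were higher in the tumours and 1, Tapbp, was lower, against 13.0% and 13.9% of all genes. The list had a median difference of 0.94, beside 0.21 over all genes. Interferon gamma is a cytokine made by T and NK cells, and many of the genes it induces carry interferon response elements, which Irf factors bind. The GTPases of this list that resist intracellular pathogens were among those that rose. Gbp2 read 9.49, 7.34, 9.79 and 10.62 in the tumours and 5.05 to 6.60 in GC B cells (3.57 ± 0.52, limma adjusted p = 6.31e-06). Igtp differed by 2.71 ± 0.53, Gbp3 by 2.22 ± 0.55, Irgm2 by 1.59 ± 0.51 and Irgm1 by 1.34 ± 0.48. In each of these 5 the lowest tumour was replicate 2, which lay within the GC range for Irgm2 and below it for Irgm1. Irgm1 was not called when any 1 array other than tumour replicate 2 was left out, and Irgm2 not without tumour replicate 4 or GC replicate 4. Cxcl10, a chemokine with the same receptor as Cxcl9, differed by 3.99 ± 0.58, and Fcgr1, a high-affinity Fc receptor of macrophages, by 2.13 ± 0.55.

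Members of the list that act in antigen processing did not pass the test upward. The immunoproteasome subunits Psmb8, Psmb9 and Psmb10 differed by -0.82, -0.34 and -1.05 (limma adjusted p = 0.142, 0.54 and 0.137). Tap1, the peptide transporter, was 9.43 to 10.70 in the tumours against 8.34 to 9.26 in GC B cells, with no overlap, and missed the threshold (1.37 ± 0.59, limma adjusted p = 0.0821), which the mean of its probe sets passed (0.81, 0.0102). Irf1, a first-wave response factor, differed by 0.59 ± 0.41. Tapbp was no longer lower without tumour replicate 1 or 2 or GC replicate 2, 3, 4 or 5 (limma adjusted p from 0.0535 to 0.30), and 9 members were higher without tumour replicate 2. Under the 3' minus 5' covariate 4 were called higher, beside 441 of 12393 genes. Type I interferon-stimulated genes gave 6 higher of 19 and none lower (13.0% and 13.9% over all genes), led by Oasl2 (3.85 ± 0.44) and Ifih1 (2.71 ± 0.50). The counts were 3 higher and 1 lower with that covariate, and 4 and 1 after renewed quantile normalization. The antiviral genes Rsad2 (-0.82 ± 0.53) and Ifit3 (0.24 ± 0.52) did not pass.

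The promoters of the interferon-gamma-induced genes were searched for 2 motifs on both strands in the 250 bases before the start: TTCNNNGAA, a short palindrome that Bcl6 can bind, and GAAA followed by any 2 bases and GAAA again, an interferon response element. RefSeq windows (GRCm38.p6) were at hand for 17 of the 22 measured members. Of these 17, 10 held at least 1 of both motifs, against 10.2% of the 9885 array genes with a window. Among the 8 that were higher in the tumours, 7 held one. Cxcl9 held neither in this window. Over all 27018 genes of the table, 8.13% held TTCNNNGAA and 3.46% held the response element. A match is a description of the letters and not a binding site. Shown are 4 upstream windows of members that were higher, 5' to 3', with motif matches in capitals: Igtp and Irgm2 hold both motifs side by side, and Gbp2 and Cxcl10 hold the response element alone.
Igtp, chr11:58199306-58199555, plus strand: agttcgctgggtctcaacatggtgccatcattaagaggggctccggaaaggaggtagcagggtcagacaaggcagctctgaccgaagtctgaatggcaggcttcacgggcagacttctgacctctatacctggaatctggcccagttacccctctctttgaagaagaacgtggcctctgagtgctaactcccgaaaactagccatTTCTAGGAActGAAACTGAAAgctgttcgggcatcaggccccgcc
Irgm2, chr11:58214727-58214976, plus strand: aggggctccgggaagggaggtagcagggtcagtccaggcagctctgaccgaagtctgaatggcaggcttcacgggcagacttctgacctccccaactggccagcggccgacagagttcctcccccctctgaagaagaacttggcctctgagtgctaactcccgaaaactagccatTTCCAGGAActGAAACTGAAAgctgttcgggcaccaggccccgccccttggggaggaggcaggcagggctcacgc
Gbp2, chr3:142620413-142620662, plus strand: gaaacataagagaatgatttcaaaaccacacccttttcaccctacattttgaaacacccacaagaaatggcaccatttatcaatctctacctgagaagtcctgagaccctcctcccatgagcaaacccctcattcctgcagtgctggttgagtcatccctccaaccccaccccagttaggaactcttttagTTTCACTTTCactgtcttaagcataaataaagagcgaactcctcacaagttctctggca
Cxcl10, chr5:92348890-92349139, minus strand: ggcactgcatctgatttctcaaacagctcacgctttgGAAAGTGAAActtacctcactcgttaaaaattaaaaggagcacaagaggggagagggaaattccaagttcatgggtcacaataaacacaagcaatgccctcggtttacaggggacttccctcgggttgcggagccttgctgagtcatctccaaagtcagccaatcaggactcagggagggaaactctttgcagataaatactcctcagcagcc
In Igtp the palindrome began 45 bases and the response element 34 bases before the start, and in Irgm2 they began 75 and 64 bases before it. In Gbp2 the element lay 59 bases and in Cxcl10 213 bases before the start.

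Of the FDC markers, 6 of 10 rose and Cr2 fell (13.0% and 13.9% over all genes), with a median of 2.41. Besides Clu and Cxcl13 these were Il33, an alarm cytokine of stromal nuclei (6.32, 6.00, 5.51 and 7.10 in the tumours, 2.17 to 2.86 in GC B cells, 3.64 ± 0.33), Prnp, the prion protein (3.25 ± 0.55), Mfge8, which tags dying cells for uptake (2.88 ± 0.56), and Madcam1, a homing ligand (1.95 ± 0.53). Madcam1 ran from 3.74 in tumour replicate 4 to 7.68 in replicate 3, and was not called without replicate 3 (limma adjusted p = 0.0593). Cr2 is shared by FDC and B cells, and Fcgr2b, shared likewise, read 9.76 to 10.68 in the tumours and 9.48 to 9.88 in GC B cells (0.43 ± 0.49, not called).

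Chemokines were higher for 8 of 22 members, beside 13.0% of all genes. Cxcl12, a stromal chemokine for lymphocytes, read 7.48, 5.66, 7.95 and 9.0 in the tumours and 2.49 to 3.09 in GC B cells (4.66 ± 0.55), and Cxcl16 differed by 2.84 ± 0.49. The monocyte chemokines Ccl2 (1.21 ± 0.41) and Ccl7 (1.09 ± 0.37) were at low intensity, and each lost its call without certain single arrays: Ccl2 without tumour replicate 2 or 3 or GC replicate 1 or 3, and Ccl7 without tumour replicate 4 or GC replicate 1 (limma adjusted p from 0.0501 to 0.158). Xcl1, a chemokine of NK cells, was the member that fell (-3.66 ± 0.40). Of the complement genes, 7 of 13 were higher and none lower (median 1.81), beside 13.0% and 13.9% of all genes. C1s1, a protease of the first component, read 7.09, 5.60, 8.22 and 8.24 against 2.37 to 2.67 (4.74 ± 0.57), and C2 differed by 2.85 ± 0.44. The same number, 7, was higher without replicate 2.

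Of the genes of stroma and matrix, 19 of 22 were higher and none was lower (13.0% and 13.9% over all genes), and the median difference was 2.87. The arrays did not overlap for 20 of them, against 17.8% of all genes in that direction. Sparc, a matrix glycoprotein, read 9.29, 7.82, 9.86 and 9.45 in the tumours and 3.61 to 4.95 in GC B cells (4.68 ± 0.46). The basement membrane collagens Col4a1 (4.46 ± 0.41) and Col4a2 (4.00 ± 0.51), the proteoglycans Bgn (4.40 ± 0.33) and Dcn (3.89 ± 0.45), and Pdgfra, a receptor of fibroblasts (4.42 ± 0.48), all rose. The mean level over the list was 5.95 to 6.95 in the tumours and 3.44 to 3.66 in GC B cells. It was 6.10 to 6.78 in the Myc/Bcl6-labelled tumours and 3.58 to 4.04 in the Lig4/p53 tumours. Without tumour replicate 2, 17 were higher, with Lum and Pdgfrb lost. Lum was also lost without tumour replicate 3 or any 1 GC array.

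Endothelial markers were higher for 9 of 16, beside 13.0% of all genes. The increases were of modest size: Sparcl1 by 2.69 ± 0.42, Plvap, a diaphragm protein of vessel pores, by 1.76 ± 0.28, and Vwf, the clotting factor carrier, by 1.66 ± 0.32. Pecam1, which B cells also express, was lower (-2.05 ± 0.41). Without replicate 2, 6 were higher. With the 3' minus 5' covariate 4 were higher and none lower, beside 441 and 431 of 12393 genes. Liver transcripts, read for tissue next to the tumour, gave 0 called of 13 by limma, also 0 at an unadjusted p under 0.05. The pooled spread includes the Myc/Bcl6-labelled arrays, where the list mean ran from 4.02 to 11.76, so a modest difference could hardly be called. The list mean was 4.43 in tumour replicate 2, 3.25 to 3.48 in the other 3 tumours and 3.11 to 3.25 in GC B cells. The arrays did not overlap for 3 of the 13, all higher in the tumours, beside 17.8% of all genes in that direction.

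Macrophage and dendritic cell markers were split, with 6 higher and 3 lower of 20 (median 0.69), beside 13.0% and 13.9% of all genes. Csf1r, the receptor that macrophages need for survival, read 11.21, 12.63, 11.97 and 12.55 in the tumours and 6.90 to 8.36 in GC B cells (4.35 ± 0.57). C1qb, a chain of complement C1q, read 12.01 to 12.66 against 7.78 to 9.41 (3.71 ± 0.61). The uptake receptors Mertk (3.08 ± 0.47) and Msr1 (2.96 ± 0.59) also rose. Cd163 (-2.25 ± 0.53), the iron exporter Slc40a1 (-2.15 ± 0.54) and the heme enzyme Hmox1 (-1.97 ± 0.48), which mark red pulp macrophages of the spleen among others, fell. The pan-macrophage genes Adgre1 (0.74 ± 0.65), Cd68 (0.52 ± 0.59) and Lyz2 (0.99 ± 0.58) did not pass, and Lyz2 read 9.29 to 11.18 in the GC sort itself. Without tumour replicate 4, 4 were higher and 5 lower, and with the 3' minus 5' covariate 4 were higher and none lower.

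NK-cell and cytotoxic genes were lower in the tumours for 10 of 11 measured, beside 13.9% of all genes, with a median of -2.73. Gzma, a granule protease, read 11.43, 11.36, 9.45, 8.58 and 9.22 in GC replicates 1 to 5 and 6.23, 4.13, 4.58 and 4.19 in the tumours (-5.23 ± 0.81). The receptors Klrk1 (-3.22 ± 0.40), Klrd1 (-3.21 ± 0.55) and Ncr1 (-2.73 ± 0.39) fell too. Gzmb was the member that rose (1.84 ± 0.47), at 5.53 to 7.67 in the tumours and 3.59 to 5.73 in GC B cells. The mean over the list was 6.60 to 7.65 in the GC arrays, which are labelled as sorted B cells, and 4.52 to 5.30 in the tumours. Under the 3' minus 5' covariate 7 were lower and none higher. T-cell markers were lower for 4 of 14, beside 13.9% of all genes. They were lower for 2 of 14 without tumour replicate 1 or 2 or GC replicate 2, 3 or 5. Of all genes 9.17% were lower without tumour replicate 2. Cd3g (-0.45 ± 0.42), Cd8a (-0.20 ± 0.50) and Cd4 (0.24 ± 0.32) did not pass, and the list mean was 5.22 to 5.86 in the tumours and 5.49 to 6.49 in GC B cells.

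Granulocyte genes were also high in the GC arrays. S100a9, a calcium-binding protein of neutrophils, read 12.92, 12.95, 12.63, 10.70 and 12.55 in GC replicates 1 to 5, and 5.16, 9.35, 4.70 and 12.20 in Bcl6 tumour replicates 1 to 4. Tumour replicate 4 lay within the GC range and replicates 1 and 3 far below it. Of the list, 5 of 14 were lower, beside 13.9% of all genes, with S100a9 at -4.50 ± 0.96 and the granule gene Camp at -4.12 ± 0.86. The list mean was 9.09 in tumour replicate 4, 3.56 to 5.96 in the other 3 tumours and 5.87 to 7.93 in GC B cells. None was called by limma with the 3' minus 5' covariate, where 4 had an unadjusted p under 0.05. What part NK-cell and granulocyte transcripts in the GC sort have in other decreases was not tested.

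Among GC B-cell genes, 9 of 15 were lower in the tumours and none was higher (median -1.46, against 13.9% lower over all genes). After Gcsam the largest was Stap1, an adaptor of B-cell signalling, at 4.86, 4.45, 5.25 and 5.32 in the tumours and 9.03 to 9.69 in GC B cells (-4.30 ± 0.43). The transcription factors Spib (-3.02 ± 0.59), Bach2 (-2.57 ± 0.67), Lmo2 (-2.34 ± 0.48) and Mef2b (-1.96 ± 0.48) fell, as did the death receptor Fas (-1.74 ± 0.47). Irf8, a GC factor that myeloid cells share, read 9.30, 8.98, 11.48 and 10.47 in the tumours and 9.82 to 10.03 in GC B cells (0.17 ± 0.45). Il21r (0.08 ± 0.43) and Ung (-0.79 ± 0.41) did not pass either. Without tumour replicate 2, 9 were again lower.

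Genes of mature B cells gave 7 lower of 16 and none higher, beside 13.9% and 13.0% of all genes. Cd79a, the signalling chain of the antigen receptor, read 6.80, 6.87, 6.97 and 7.22 in the tumours and 10.31 to 11.34 in GC B cells (-3.96 ± 0.38), and Cd79b differed by -2.95 ± 0.35. Cd37 (-3.89 ± 0.35) and Fcer2a, the low-affinity IgE receptor (-3.28 ± 0.53), were lower as well. Other B-cell genes overlapped the GC arrays: Cd22 (-0.31 ± 0.43), Cd40 (0.22 ± 0.48) and the kinase Blk (0.10 ± 0.53) did not pass. This rested on the probe set for Cd22, whose mean of all probe sets was called lower (-1.96, limma adjusted p = 0.000745), while that of Cd40 was -0.95 (0.0502). Ms4a1, which encodes CD20, read 9.68, 10.47, 10.63 and 7.79 against 11.44 to 11.83 with no overlap and missed the threshold (-2.07 ± 0.91, limma adjusted p = 0.0895), but the mean of its probe sets passed (-3.02, adjusted p = 0.0049). The mean level over the list was 7.59 to 8.27 in the tumours and 9.14 to 9.90 in GC B cells. Of the B-cell receptor signalling genes 4 of 16 were lower, beside 13.9% of all genes, with Bcl10, which links the receptor to NF-kB, at -3.83 ± 0.79. Syk (0.10 ± 0.64), Btk (-0.34 ± 0.38) and Blnk (0.05 ± 0.61) did not pass.

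MHC class II genes gave different calls for different members. The antigen-presenting chains and the invariant chain did not pass: H2-Aa was 0.55 ± 0.44, H2-Ab1 was -0.26 ± 0.48, H2-Eb1 was -1.0 ± 0.39 and Cd74 was -0.73 ± 0.41, all at high intensity on both sides. The mean of all probe sets was called lower for 3 of these 4, at -1.27 for H2-Aa, -1.96 for H2-Ab1 and -1.0 for H2-Eb1. The chains of the peptide editor, H2-DMb2 (-4.49 ± 0.43) and H2-DMa (-2.91 ± 0.55), fell, and so did H2-Oa (-2.74 ± 0.49). H2-DMb2 read 5.23, 6.48, 4.84 and 4.52 in the tumours and 9.11 to 10.67 in GC B cells. Ctss, the protease that clears the invariant chain, rose by 1.37 ± 0.39.

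Of the 12 largest decreases, 3 (Cr2, Gcsam and Ly6d) were B-cell genes. They were led by Fos, an AP-1 subunit (-5.65 ± 0.76), at 5.19, 5.41, 5.52 and 7.17 in the tumours and 10.48 to 12.13 in GC B cells. Cr2 came next (-5.46 ± 0.51), then Pold4, a subunit of DNA polymerase delta (-5.39 ± 0.64), Gzma, the actin regulators Vasp (-5.19 ± 0.50) and Pfn1 (-5.04 ± 0.57), and Zfp36, which destabilizes cytokine mRNAs (-5.13 ± 0.43). Cbl, a ubiquitin ligase (-4.96 ± 0.75), Sfswap, a splicing regulator (-4.89 ± 0.80), the probe set named Hba-a2 (-4.89 ± 0.61), Gcsam (-4.78 ± 0.45) and Ly6d (-4.71 ± 0.49) completed the 12. Probe sets of 1 gene disagreed for Cbl, where the second, dim one gave 0.64, and for Sfswap, where the other 2 gave -3.67 and 0.44. Just below the limit lay the ribosomal protein gene Rps14 (-4.65).

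The same genes can be read in sorted plasma cells, whose RNA controls differ among themselves. Pfn1 read 6.70 and 5.97 in plasma cell replicates 1 and 2, which have low 18S and a high 3' minus 5' difference, and 9.94 in replicate 3. Sfswap read 4.03, 4.08 and 8.21, and Hba-a2 read 6.91, 6.71 and 10.49 in the same arrays. Of the 12 largest decreases, 8 were lower by over 1 (log2) in both replicates 1 and 2 than in replicate 3, beside 9.66% of all genes and 22.4% of all genes called lower, and the median of that difference was -1.96. Of the 12 largest increases none was, and none was higher by over 1 (median -0.30). A gene near the low end of the scale in all 3 plasma cell arrays cannot be lower by that much. This count therefore does not show whether the increases depend on RNA state. Gcsam (2.79, 2.71 and 4.26) and Cr2 (3.28, 3.17 and 4.91) were among the 8, at intensities near the lower end of the scale. These are 2 arrays against 1, with no test. With the 3' minus 5' covariate 10 of the 12 decreases were still called, and Cbl (-2.23, limma adjusted p = 0.136) and Sfswap (-1.87, 0.246) were not.

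Immediate early genes, which cells switch on within minutes of a stimulus, were lower for 13 of 18 and higher for none (median -2.05). Over all genes 13.9% were lower. Fosb read 3.31, 4.10, 3.25 and 3.31 in the tumours and 6.92, 8.27, 5.24, 8.49 and 9.85 in GC B cells (-4.26 ± 0.60). Egr1 differed by -4.13 ± 0.87, Klf6 by -3.82 ± 0.79, Dusp1 by -3.47 ± 0.66 and Nr4a1 by -3.43 ± 0.64. GC replicate 3 was the lowest GC array for Fosb, Dusp1 and Nr4a1. Without tumour replicate 2, 11 were lower, and with the 3' minus 5' covariate 4 were, beside 431 of 12393 genes.

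**Figure D5:**
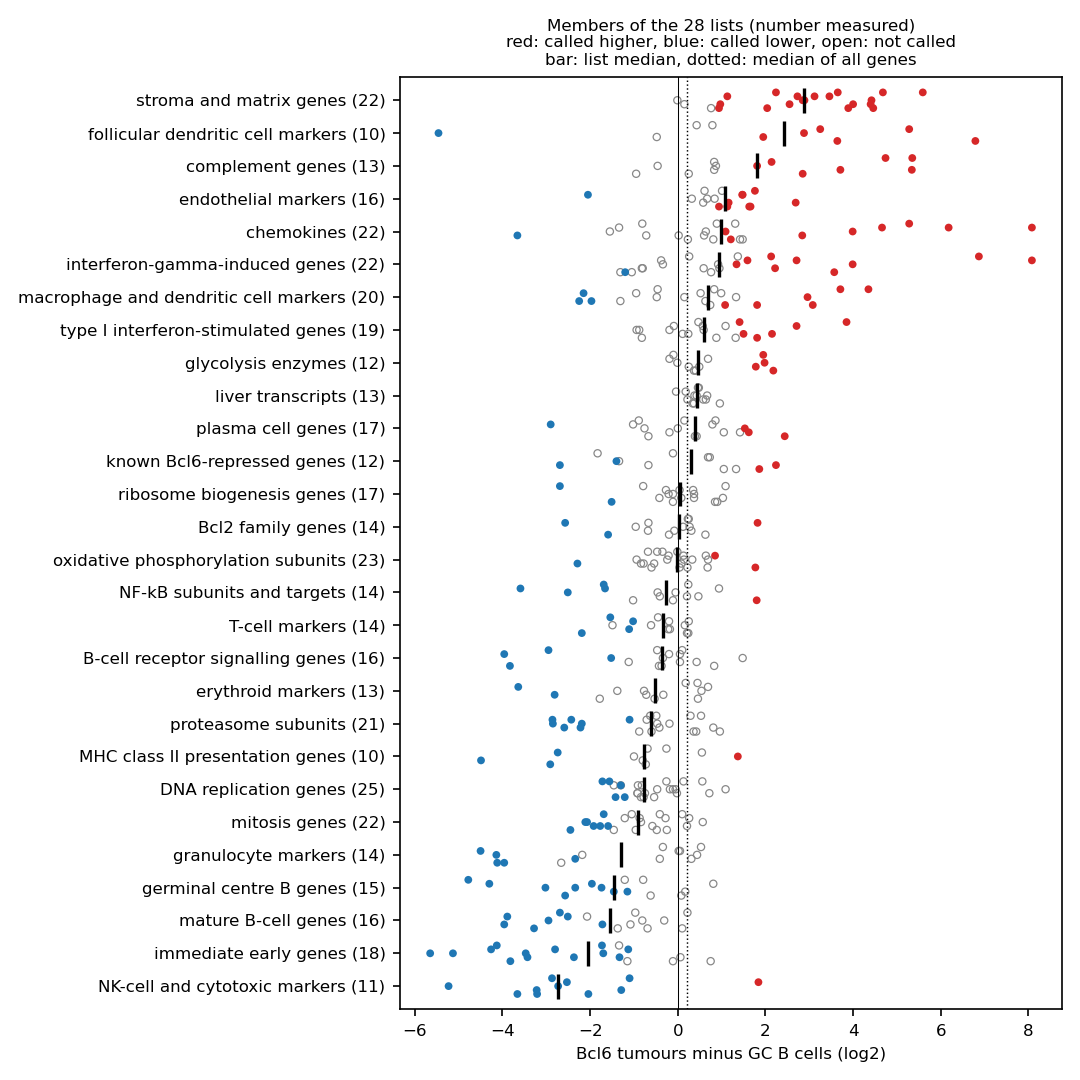
Log2 difference of Bcl6 tumours and GC B cells for each measured member of 28 gene lists, sorted by the list median (black bar), with called members filled. Stroma and matrix genes have the highest median, 2.87, NK-cell and cytotoxic markers the lowest, -2.73, and the dotted line marks the median of all genes, 0.21.

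Of the mitosis genes 7 of 22 were lower and none was higher (median -0.92), beside 13.9% and 13.0% of all genes. Among the 7 were Cenpe, a kinetochore motor (-2.45 ± 0.63), Birc5 (-2.11 ± 0.68) and Plk1, a mitotic kinase (-1.59 ± 0.37). Birc5 read 9.12, 5.70, 8.97 and 8.84 in the tumours and 9.25 to 10.82 in GC B cells, with replicate 2 far below the rest. Birc5 was not called without that replicate (limma adjusted p = 0.179). Without it 4 mitosis genes were lower, and with the 3' minus 5' covariate limma called none (1 at an unadjusted p under 0.05). Mki67, the proliferation marker, was 10.41 to 11.74 in the tumours and 9.73 to 11.60 in GC B cells (0.26 ± 0.47, not called). Of the DNA replication genes 5 of 25 were lower, beside 13.9% of all genes, with Pcna, the polymerase clamp, at -1.72 ± 0.45 and Mcm3, a helicase subunit, at -1.56 ± 0.35. That count fell to 2 without replicate 2, a share no larger than the 9.17% of all genes then called lower, when 1 was higher, and lay at 2 or 3 without GC replicate 1, 2, 3 or 4. Of the ribosome biogenesis genes 2 of 17 were lower, a share below the 13.9% of all genes, Rrs1 (-2.69 ± 0.59) and Npm1 (-1.51 ± 0.53), and Npm1 was lost without tumour replicate 1 or 2 or GC replicate 1, 2 or 3.

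Proteasome subunits were lower for 7 of 21 (median -0.60), beside 13.9% of all genes. Psmb2 differed by -2.86 ± 0.74 and Psmb6 by -2.85 ± 0.58, and in each of the 7 the lowest array was tumour replicate 2. After renewed quantile normalization 6 were lower and 4 higher, and with the 3' minus 5' covariate 1 was lower. Glycolysis gave 4 higher of 12 and none lower, beside 13.0% and 13.9% of all genes. The 4 were Pfkp (2.18 ± 0.53), the hexokinases Hk2 (1.98 ± 0.41) and Hk1 (1.78 ± 0.56), and the lactate exporter Slc16a3 (1.95 ± 0.48). Hk1 was not called without tumour replicate 4 (limma adjusted p = 0.0655). Oxidative phosphorylation gave 2 higher and 1 lower of 23 (median -0.01), shares below the 13.0% and 13.9% of all genes. None was higher without tumour replicate 1, and 1 was without replicate 4 or GC replicate 2.

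Of 12 measured genes that Bcl6 is known to repress, 2 were higher and 2 lower. Over all genes 13.0% were higher and 13.9% lower, so the counts do not set the list apart. Cdkn1a, the p21 inhibitor of the cell cycle, read 5.68, 5.06, 7.67 and 8.17 in the tumours and 4.10 to 5.01 in GC B cells (2.24 ± 0.62, limma adjusted p = 0.00771). Cd80, a co-stimulatory ligand, differed by 1.86 ± 0.48. S1pr1, which guides egress from lymphoid tissue, was lower (-2.69 ± 0.44), and so was Cdkn1b (-1.40 ± 0.38), the latter not called without replicate 2 (limma adjusted p = 0.0557). Under the 3' minus 5' covariate 1 of the 12 was higher and none lower. Prdm1, the plasma cell regulator, read 7.64, 7.30, 5.55 and 6.99 in the tumours and 5.45 to 6.25 in GC B cells (1.05 ± 0.48, adjusted p = 0.104). Bcl2 did not pass (-0.67 ± 0.61). The list median was 0.29, near the 0.21 of all genes.

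Plasma cell genes gave 3 higher and 1 lower of 17, where 13.0% of all genes were higher and 13.9% lower, so the counts do not set the list apart. Creb3l2, a secretory regulator, rose by 2.44 ± 0.48, Creld2 by 1.62 ± 0.60 and Derl3 by 1.53 ± 0.48, and tumour replicate 1 was the highest for all 3. Without that replicate 1 member was higher. Creld2 was not called when any 1 array other than tumour replicate 2 was left out. Irf4 was lower (-2.90 ± 0.97) and was not called without replicate 2 (limma adjusted p = 0.0961), tumour replicate 3 or GC replicate 4 or 5. Jchain, Xbp1 and Sdc1 did not pass. NF-kB genes gave 1 higher and 4 lower of 14, beside 13.0% and 13.9% of all genes. Bcl3 was higher (1.80 ± 0.56), and the decreases were led by Cflar, an inhibitor of death receptor signalling (-3.59 ± 0.35), and Cd83 (-2.51 ± 0.59). Bcl3 was lost without tumour replicate 4. In the Bcl2 family 1 of 14 was higher and 2 were lower, shares below and near those of all genes. Bik rose (1.82 ± 0.43), and the death-promoting genes Pmaip1 (-2.57 ± 0.49) and Bcl2l11 (-1.59 ± 0.47) fell. Bcl2l11 was not called without tumour replicate 1 or 2, and the mean of its probe sets was -0.20 (limma adjusted p = 0.587). Erythroid markers gave 2 lower of 13, near the 13.9% of all genes, Car2 (-3.64 ± 0.62) and Slc4a1 (-2.81 ± 0.85), and 1 lower without tumour replicate 1 or 3.

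Of the 122 called genes given here by name, 20 lost their call when some 1 array was left out (those so described above, and Cd3e, Derl3 and Slc4a1), and none turned. With the 3' minus 5' difference as a covariate, 53 were not called the same way. Among genes that had risen, these were the interferon-induced Igtp, Irgm1, Irgm2, Gbp3, Fcgr1 and Ifih1, the chemokines Ccl2 and Ccl7, Madcam1, Lum, Gzmb, Ctss, Cd80, Creld2, Derl3, Hk1, Pfkp and Slc16a3. Among genes that had fallen, they were Bcl6, Myc, Lmo2, Mef2b, Bcl10, H2-DMa, Irf4, Cd83 and S1pr1 of the B-cell and regulator lists, and Egr1, Klf6, Dusp1 and Nr4a1 of the immediate early genes. They were also Birc5, Cenpe, Plk1, Mcm3, Npm1 and Cdkn1b of cell division, the proteasome subunits Psmb2 and Psmb6, and S100a9, Camp, Cd163, Hmox1, Slc40a1, Pecam1, Cd3e, Car2 and Slc4a1 of other cell types. Tapbp, Cbl, Sfswap, Bcl2l11 and Pmaip1 completed the 53. Under this 3' minus 5' covariate 17 of 22 stroma and matrix, 5 of 13 complement, 6 of 22 chemokine and 5 of 10 FDC genes were higher. Lower were 1 chemokine, 1 FDC, 7 of 15 GC B-cell and 3 of 10 MHC class II genes. Over all 12393 genes 441 were higher and 431 lower. For the other lists whose count under it is not given above, the covariate left 4 mature B-cell, 2 B-cell receptor signalling, 2 NF-kB, 1 T-cell, 1 DNA replication and 1 ribosome biogenesis gene lower. It left 1 plasma cell, 1 glycolysis and 1 NF-kB gene and 2 Bcl2 family genes higher. Limma called no liver, erythroid or oxidative phosphorylation gene (0, 2 and 5 at an unadjusted p under 0.05). What this covariate takes from the group difference itself cannot be told apart from what it takes from RNA state, since the groups did not overlap in it.

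To set the Bcl6 tumours beside samples with a nearer 18S level, they were compared with the mean of the other 2 tumour types (3 Myc/Bcl6-labelled and 6 Lig4/p53 arrays). The 3' minus 5' difference was 2.25 to 3.64 in the Lig4/p53 tumours, below all 4 Bcl6 tumours (3.65 to 4.60), and 3.23 to 4.7 in the Myc/Bcl6-labelled ones. The interquartile range was 3.74 to 4.23 in the Lig4/p53 tumours, where it overlapped GC B cells, and 2.33 to 2.85 in the Myc/Bcl6-labelled ones. RNA controls thus differed in this comparison as well. Here 435 genes were higher and 194 lower, which is 5.08% of those tested (3.51% and 1.57%). Without Bcl6 tumour replicate 3 there were 410 calls, without replicate 4 there were 402, and without Myc/Bcl6-labelled replicate 3 there were 934. Both comparisons use the same 4 Bcl6 tumour arrays, so their values are given side by side and not as independent evidence. The difference from the other tumours was 5.03 for Cxcl9, 4.32 for Clu, 4.03 for Iigp1, 3.96 for Cxcl13, 2.99 for Igfbp7 and 2.09 for Tgfbi, where the difference from GC B cells was 8.08, 6.79, 6.87, 5.28, 5.59 and 4.95. Each of these 6 passed the test here too (limma adjusted p from 2.3e-08 to 0.0382). The mean of the other 2 tumour types joined unlike levels. Cxcl9 and Clu, as given above, were high in the Myc/Bcl6-labelled tumours, with ranges that overlapped those of the Bcl6 tumours. They were not high in the Lig4/p53 tumours.

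For the 12 largest decreases, none passed in this comparison with all arrays. Without Bcl6 tumour replicate 4, 1 of the 12 did. Fos differed from the other tumours by -0.27 (limma adjusted p = 0.906), Vasp by -0.58 (0.57), Pfn1 by -0.85 (0.431), Cbl by -0.80 (0.615), Gcsam by -0.05 (0.976) and Cr2 by 0.70 (0.484). Pfn1 read 7.43 to 9.30 in the Lig4/p53 tumours, 4.72 to 5.37 in the Myc/Bcl6-labelled ones and 10.30 to 11.63 in GC B cells. Bcl6 differed from the other tumours by 1.02 (adjusted p = 0.446).

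By list, the stroma and matrix genes gave 9 higher of 22 against the other tumours, the interferon-gamma-induced genes 11 of 22, complement 7 of 13, chemokines 9 of 22 and FDC markers 5 of 10, with none lower in any of these. Over all genes 3.51% were higher and 1.57% lower. These list differences are from the mean of 2 tumour types with unlike levels. The mean level of the complement list was 6.09 to 7.17 in the Bcl6 tumours, 5.29 to 7.56 in the Myc/Bcl6-labelled and 3.67 to 4.22 in the Lig4/p53 tumours. For the FDC markers it was 7.2 to 8.33, 5.63 to 7.79 and 4.25 to 4.8. The ranges of the Bcl6 and Myc/Bcl6-labelled tumours overlapped for these lists and for stroma and matrix, and the Lig4/p53 tumours lay below both. MHC class II genes gave 7 higher of 10, with Cd74 at 1.66, H2-Aa at 2.08 and H2-Ab1 at 2.11, although none of these 3 passed against GC B cells. The mean level of this list was 9.22 to 10.00 in the Bcl6 tumours. It overlapped that of the Lig4/p53 tumours (8.51 to 9.46) and not that of the Myc/Bcl6-labelled ones (6.62 to 8.96). NF-kB genes gave 6 higher of 14 and none lower, with Traf1 at 2.77 and Cd83 at 2.72. Their mean level, 6.54 to 7.38 in the Bcl6 tumours, overlapped that of the Lig4/p53 tumours (5.36 to 6.70). It was 4.96 to 6.23 in the Myc/Bcl6-labelled tumours. T-cell markers gave 4 higher of 14, with Cd3g at 2.46 and Cd3e at 2.26. Their mean level, 5.22 to 5.86 in the Bcl6 tumours, overlapped that of the Myc/Bcl6-labelled tumours (4.53 to 5.48). It was 3.63 to 4.03 in the Lig4/p53 tumours. GC B-cell genes gave 3 higher and 1 lower of 15: Irf8 (2.30), Lmo2 (2.22) and Il21r (2.16) were higher and Stap1 (-1.31) lower. Mitosis, DNA replication and proteasome genes gave none in either direction by limma, with 2, 4 and 2 members at an unadjusted p under 0.05. The mean level of the liver transcripts was 4.02 to 11.76 in the Myc/Bcl6-labelled arrays, and its part in these values was not tested.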

How the data were processed

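The series holds 35 Affymetrix Mouse 430A2 arrays in 9 groups. Per the labels' protocols, Tripure was used to isolate RNA, which the Ovation V2 kit of NuGen amplified before biotin labelling. The authors deposited log2 intensities per probe set, made with RMA per the submitters' processing notes. Which arrays were normalized together is not given in the sources used here, and the array number limits the precision.

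The table had 22690 probe sets with log2 values from 1.71 to 14.29. Control probe sets (64) were left out of gene tests. By the platform annotation 20380 probe sets had 1 gene symbol, 691 several and 1555 none, and the last 2 kinds were not named. These gave 12393 genes, and for the 4956 with more than 1 probe set the one with the highest mean over all arrays was used.

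All 35 arrays entered 1 fit with limma 3.58.1 (R 4.3.3) by lmFit and eBayes, with Benjamini-Hochberg adjustment over all genes, and a gene was called at an adjusted p under 0.05. The fit was tested on simulated data. Control probe sets were compared with exact permutation tests (scipy 1.17.1, Python 3.11.15). Named were Bcl6, Myc, the 4 markers, members of 28 gene lists (444 of 519 genes measured), and the 12 largest increases and 12 largest decreases among genes called with and without Bcl6 tumour replicate 2 whose arrays did not overlap, leaving out antigen receptor segments and Ptprc. Bgn under the 18S covariate, and the genes just below the limit of 12, were named after their values were seen. Members and lists were chosen with earlier results of these data known. Upstream windows came from RefSeq (GRCm38.p6).

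Replicate numbers were checked for pairing: deviations of same-numbered tumour and GC arrays correlated at 0.078, -0.145, -0.055 and -0.186, and the main fit did not pair them. These correlations cannot exclude a shared processing batch. Alternatives were another probe set rule, equal array medians, quantile normalization run again, a robust prior with a trend, weights per array, dropping dim genes, other sets of arrays, both control covariates and a replicate block.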

Additional observations from a re-analysis of the deposited data

Results flagged for a closer look

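In 4 of 58 group comparisons of single arrays, 1 array lay far from the rest of its group, where about 1 in 20, or 2.9, would do so by chance. The gap to the nearest array is given as a share of the group's range. Myc was 10.23 in GC replicate 5 and 7.75 to 8.44 in the other 4 GC arrays (share 0.722). Cxcl9 was 2.97 in GC replicate 2 and 2.44 to 2.55 in the others (0.791), all at the low end of the scale. Hba-a2 was 9.89 in GC replicate 4 and 10.58 to 10.79 in the others (0.77). Fos was 7.17 in Bcl6 tumour replicate 4 and 5.19 to 5.52 in the other 3 tumours (0.834).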

How the results depend on the processing

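The count of 3326 genes called between Bcl6 tumours and GC B cells lay between 2334 and 3296 when 1 array was left out. It was 2075 without dim genes, which tested 6197 genes, 5010 with array weights (whose estimation stopped before full convergence) and 872 with the 3' minus 5' covariate. It was 1 with the 18S covariate (1466 at an unadjusted p under 0.05) and 1571 without Bcl6 tumour replicates 1 and 2, chosen after seeing the data as was the fit on both groups alone without replicate 2 (4970). The other settings gave 2563 to 4229. Renewed quantile normalization moved the median difference of all genes from 0.21 to 0.04. Against the other tumours, the 629 calls became 402 to 934 with 1 array left out (402 without Bcl6 tumour replicate 4 and 410 without replicate 3). They became 329 without dim genes, 996 with array weights and 1643 without the 3 arrays of narrow spread. With the replicate number as a block the counts were 2883 and 582, and 8 of the 122 called genes given by name lost their call. Among those 122, 121 were not called the same way under the 18S covariate, in which the compared groups did not overlap. It turned the sign of 14: Cbl (0.51), Cd3e (0.09), Bcl2l11 (0.05), Cenpe (0.74), Ctss (-0.88), Hmox1 (0.84), Irgm1 (-1.39), Klf6 (0.56), Madcam1 (-0.34), Myc (0.67), Pecam1 (0.00), Psmb2 (0.02), Sfswap (2.85) and Tapbp (0.65). The 3' minus 5' covariate turned Irgm1 (-0.14), and the mean of all probe sets turned H2-Aa (-1.27). Except for the settings that leave out genes or arrays, the cause was not tested. The 3 differences of control measures kept their direction and an exact permutation p of 0.0357 or less without any 1 of the 9 arrays. Intensities near the low end of the scale bound the size of the decreases.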
